A study of Homo sapiens with 6 samples.

Results

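The transcripts examined here were those of 33 DNA replication factors that act at origins and replication forks, in H460 cells treated with fluoxetine and in control cells. They were chosen by name, as the DNA polymerase and primase subunits, the sliding clamp and its loader, the single-strand binding complex RPA, the enzymes that finish lagging strands, the CDC45 and GINS parts of the replicative helicase, the origin licensing factors and a fork protection pair. All 33 were found among the 31762 genes of the count table, each with a row of its own, and all 33 passed the filter on low counts that left 15646 genes for testing. H460 is an established human cell line from a large cell carcinoma of the lung, labelled as wild type, so the results describe this line alone. RNA sequencing covered 3 control libraries and 3 libraries of cells given 20 µM fluoxetine, an antidepressant that blocks serotonin reuptake, for 24 h. What the control cells received in place of the drug is not given in the sources used here.

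The total count per library lay between 19343565 and 27823667 in the control group and between 16157507 and 17113538 in the fluoxetine group, so every treated library was shallower. The lowest count of any of the 33 genes in any library was 177. The keratin genes KRT8, KRT18 and KRT19, which mark epithelial cells, lay between 286 and 2100 CPM (counts scaled to a common library size with TMM factors), whereas the epithelial adhesion genes EPCAM and CDH1 were at most 0.573 CPM, so of the epithelial markers the keratins were present and the adhesion genes were near 0. Markers of other cell types were low: over the leukocyte and endothelial lists no gene exceeded 8 counts in a library, and among fibroblast markers COL1A1 and PDGFRB reached 5.35 and 4.64 CPM. The labels do not say whether replicates were separate cultures, so p-values measure the spread between these libraries, which may be technical.

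Before a cell copies its DNA, the origin recognition complex with CDC6 and CDT1 loads the MCM helicase onto origins, and geminin (GMNN) blocks a second loading. In S phase the kinase CDC7 and cyclin-dependent kinases recruit CDC45 and the GINS complex, which turn MCM into a working helicase. Polymerase alpha with primase lays down primers, the RFC complex loads the PCNA ring, and polymerases epsilon and delta extend the leading and the lagging strand, while RPA coats single strands and FEN1 and LIG1 join the lagging fragments. Many of these genes are known targets of E2F transcription factors, which are active late in G1, and their transcripts vary with the share of cycling cells. In bulk RNA, fewer cells in S phase and less RNA of these genes per cell cannot be told apart.

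Of the 33 transcripts, 23 fell with fluoxetine and 0 rose, with edgeR's quasi-likelihood test and an adjusted p-value under 0.05 over all 15646 genes (a gene past it is termed called). Over all tested genes, 5.32% were called lower and 7.76% called higher. Among the 8252 tested genes at or above the lowest member mean of 14.4 CPM, 9.14% were called lower. The median log2 fold change of the 33 genes, fluoxetine over control, was -0.34, a level 21.0% lower, with quartiles of -0.46 and -0.26, against a median of 0.03 for all tested genes. The changes were small: the lowest was -0.67 (GINS4), and 0 of the 33 were called with a 2-fold fall, against 0.147% of all tested genes. Unadjusted, 28 had p under 0.05 and lower (12.9% of all tested genes) and 0 had p under 0.05 and higher, and DESeq2 and limma-voom likewise called 0 higher. Every fluoxetine library lay below every control library for 27 of the 33 (14.4% of all tested genes), and above for 0 (17.5%). The other 6, PRIM2, POLD1, POLD2, RFC1, RPA3 and CDT1, had overlapping groups. Summed over the 33 genes, the level was 3025, 2986 and 2863 CPM in control replicates 1, 2 and 3 and 2295, 2395 and 2323 CPM in fluoxetine replicates 1, 2 and 3. The number called rested on single libraries: it was 6 without fluoxetine replicate 1, 9 without fluoxetine replicate 3 and 11 without control replicate 2, where the calls over all genes also dropped, to 163, 324 and 435 lower. The median over the 33 genes stayed between -0.41 and -0.35 in the fits that left out a library, and 6 genes were called in each of them: CDC45, GINS2, GINS4, ORC1, PCNA and RPA2. Each of the other called genes lost its call in at least 1 of them. The calls of POLA2, RFC5, FEN1, GINS3, CDC7, TIPIN and GMNN each held in only 3 of the 6 fits.

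**Figure D1:**
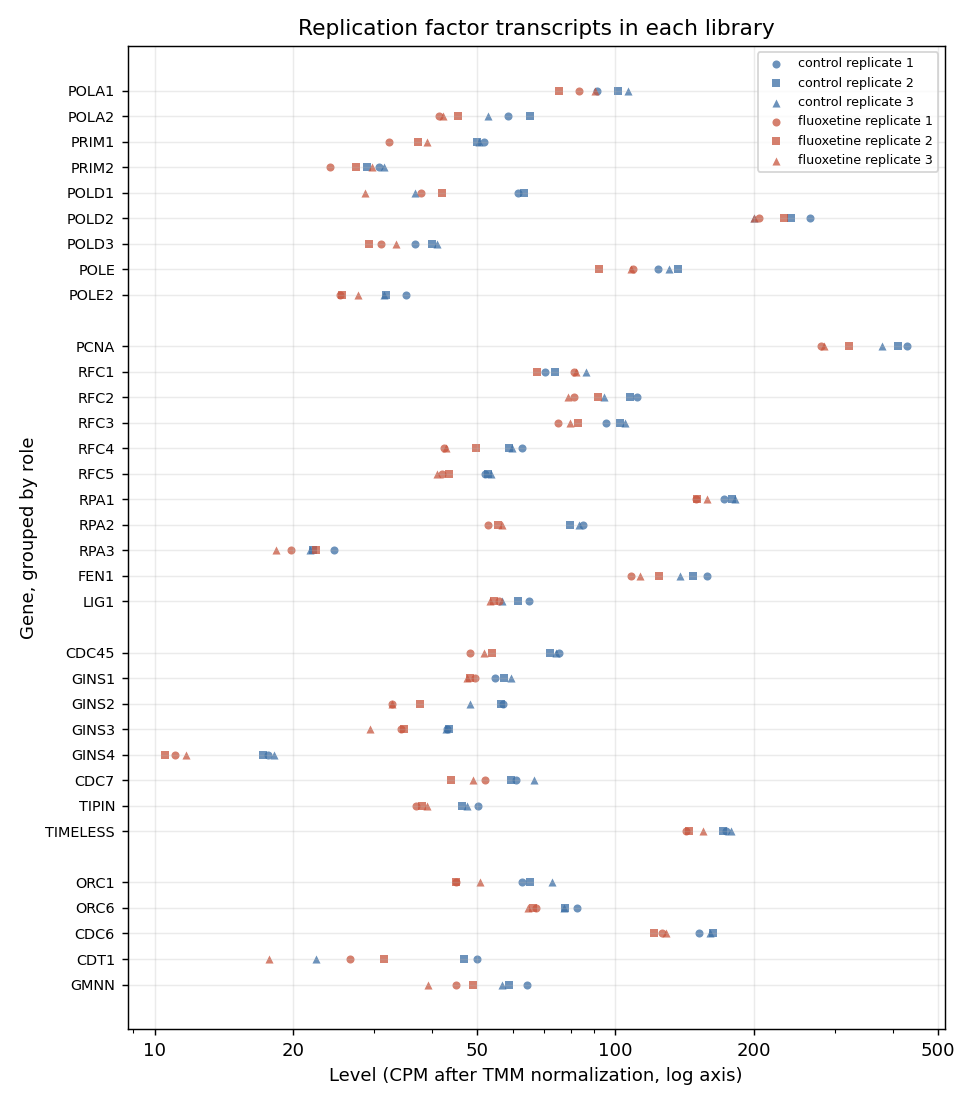
Level of each of the 33 transcripts (horizontal log axis, CPM after TMM normalization) in the 6 libraries, with genes on the vertical axis in blocks by role. Blue marks control and red fluoxetine libraries, and the marker shape gives the replicate. For 27 genes all red marks lie to the left of all blue marks.

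**Figure D2:**
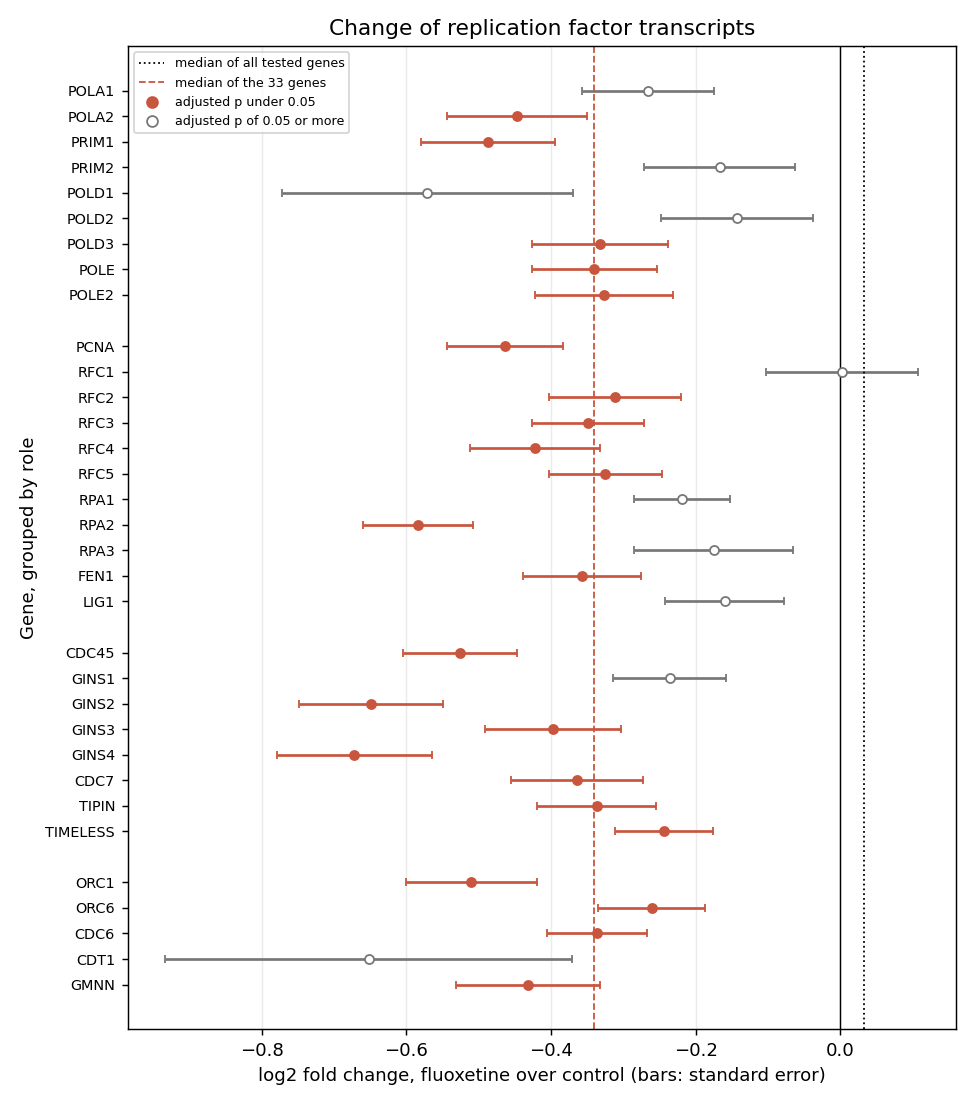
The log2 fold change of each transcript, fluoxetine over control (horizontal axis), with its standard error from edgeR as a bar. Filled red points had an adjusted p under 0.05 (23 genes) and open grey points did not, the dashed line is the median of the 33 genes (-0.34) and the dotted line the median of all tested genes (0.03).

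Since the genes moved together and E2F is the factor best known at their promoters, the RefSeq windows from 250 bases before to 50 after each transcript start (GRCh38.p14) were searched for E2F words, on both strands. Windows were found for 29 of the 33 genes, not for RPA2, RPA3, POLD3 and GINS4. The words TTTCCCGC, TTTCGCGC, TTTGCCGC or TTTGGCGC occurred at 15 of the 29 genes. They occurred at 3.99% of the 27305 genes with a window and at 6.65% of the 10195 tested genes that matched one by symbol. Of the 15 genes with such a word, 11 were called lower and 4 were not, namely POLA1, LIG1, GINS1 and CDT1. Of the genes without one, 9 were called lower, among them CDC45, ORC1 and PRIM1, and 5 were not. A CCAAT box (CCAAT) was present at 17 of the 29 genes and at 42.9% of the tested genes. A GC box (GGGCGG, which can overlap an E2F word) was present at 22 of the 29 genes and at 76.6% of the tested genes. The cell cycle element named CHR, searched as TTTGAA or TTCGAA, was at 0 of the 29 genes and at 15.8% of the tested genes. A word in a window is a match of letters, and binding was not measured.

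The stretches from 120 bases before to 30 after the RefSeq start are shown for the called gene with the smallest p-value among those with an E2F word there, for each role, and for GINS3, the next among the helicase factors. Capitals mark the E2F words, read on either strand. The polymerase alpha subunit POLA2 lies at chr11:65261842-65261991 on the plus strand. The clamp PCNA lies at chr20:5126593-5126742 on the minus strand. The helicase subunits GINS2 and GINS3 lie at chr16:85688925-85689074 on the minus strand and chr16:58392351-58392500 on the plus strand. The licensing factor CDC6 lies at chr17:40287759-40287908 on the plus strand, with its word after the start. All these stretches except that of PCNA lie wholly inside the gene as the count table gives it.
POLA2: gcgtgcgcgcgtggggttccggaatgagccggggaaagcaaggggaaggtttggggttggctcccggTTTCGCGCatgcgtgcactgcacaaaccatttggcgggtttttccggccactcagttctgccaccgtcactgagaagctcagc
PCNA: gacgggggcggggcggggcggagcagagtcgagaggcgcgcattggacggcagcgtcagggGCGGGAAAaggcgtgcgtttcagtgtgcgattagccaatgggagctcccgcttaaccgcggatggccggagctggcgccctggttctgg
GINS2: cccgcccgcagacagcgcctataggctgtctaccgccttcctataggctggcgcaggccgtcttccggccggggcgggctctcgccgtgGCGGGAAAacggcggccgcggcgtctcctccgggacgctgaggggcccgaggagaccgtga
GINS3: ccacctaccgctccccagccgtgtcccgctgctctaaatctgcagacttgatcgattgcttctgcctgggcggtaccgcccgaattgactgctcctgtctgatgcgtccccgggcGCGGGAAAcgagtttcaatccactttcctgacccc
CDC6: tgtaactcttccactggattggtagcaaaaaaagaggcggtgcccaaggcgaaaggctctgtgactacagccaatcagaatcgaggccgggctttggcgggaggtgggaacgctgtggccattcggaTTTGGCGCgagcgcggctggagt
For contrast, the same stretch of CDC45 at chr22:19479706-19479855 on the plus strand is shown, a gene that fell by 0.53 on the log2 scale and whose windows hold none of the E2F words searched. Its capitals mark CCAAT boxes. CDC45 has more than 1 window, and only starts with a CCAAT box in the stretch were considered. Of these, the start nearest that of the gene was taken. Another window, with a start nearer that of the gene, held no CCAAT box.
CDC45: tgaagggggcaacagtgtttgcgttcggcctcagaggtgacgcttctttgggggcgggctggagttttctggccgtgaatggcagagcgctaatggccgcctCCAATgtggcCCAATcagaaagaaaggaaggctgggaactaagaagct

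Among the factors that build and guard the moving helicase, 7 of 8 transcripts fell (5.32% of all tested genes). All 8 had every treated library under every control library (14.4% of all tested genes), with a median log2 fold change of -0.38. CDC45, the factor that joins GINS and MCM in the active helicase (ENSG00000093009, chromosome 22, 19479459 to 19520612, plus strand), was at 75.5, 72.1 and 74.3 CPM in control replicates 1, 2 and 3 and at 48.3, 54.1 and 51.8 CPM in fluoxetine replicates 1, 2 and 3. The groups were well apart, and the libraries within each were close together. The mean went from 73.9 ± 1.74 to 51.4 ± 2.92 CPM (SD over n = 3), at a log2 fold change of -0.53 (edgeR adjusted p = 0.00239, SE 0.08).

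The GINS complex has 4 subunits, and their log2 fold changes ran from -0.67 to -0.24. GINS2 was at 57.0, 56.3 and 48.45 CPM in the control libraries and at 32.7, 37.65 and 32.7 CPM in the fluoxetine libraries, a fall of 0.65 on the log2 scale (edgeR adjusted p = 0.00281, SE 0.10). GINS4, the lowest of the 33 transcripts per kilobase of annotated exon (3.23 CPM per kilobase in control cells), was at 17.6, 17.2 and 18.2 CPM and then at 11.05, 10.5 and 11.7 CPM. Its fall of 0.67 on the log2 scale (edgeR adjusted p = 0.00331, SE 0.11) was the largest, though it rested on 177 to 505 counts per library. GINS3 had the tightest control group of the 4, at 43.1, 43.5 and 43.0 CPM, and was at 34.2, 34.9 and 29.3 CPM with fluoxetine, a log2 fold change of -0.40 (edgeR adjusted p = 0.0215). GINS1 lay lower in every treated library as well, with means of 57.1 ± 2.19 and 48.5 ± 1.09 CPM (SD, n = 3), but its log2 fold change of -0.24 did not pass the adjusted threshold (edgeR adjusted p = 0.0724). GINS2 overlaps GSE1, on the other strand, in 7 exon bases, and GSE1 had a log2 fold change of -0.01.

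CDC7, the kinase that phosphorylates MCM to fire origins, was at 60.8, 59.3 and 66.6 CPM in control libraries and at 52.1, 44.1 and 49.0 CPM after fluoxetine, a log2 fold change of -0.36 (edgeR adjusted p = 0.0269, SE 0.09). TIMELESS and TIPIN, partners that hold the helicase and polymerases together at paused forks, fell by 0.24 (edgeR adjusted p = 0.0412) and 0.34 (edgeR adjusted p = 0.0240) on the log2 scale. The call of TIMELESS was lost at equal depth and with library size only, and held in 1 of the 6 fits without a library. TIMELESS, at 174.3 ± 3.34 CPM (SD, n = 3) in control cells was at 29.97 CPM per kilobase of annotated exon and TIPIN at 17.4 CPM per kilobase. The log2 ratio of TIPIN to TIMELESS was -1.79, -1.88 and -1.90 in the control libraries and -1.95, -1.92 and -1.99 in the fluoxetine libraries. Those values did not overlap, at a difference of -0.09.

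In the origin licensing group, 4 of 5 transcripts fell (5.32% of all tested genes). ORC1, the ATPase subunit of the origin recognition complex whose level is known to swing with the cell cycle (ENSG00000085840, chromosome 1, 52372829 to 52404459, minus strand), was at 62.7, 65.4 and 72.8 CPM in control replicates 1, 2 and 3 and at 45.2, 45.1 and 50.8 CPM in fluoxetine replicates 1, 2 and 3. Its log2 fold change was -0.51 (edgeR adjusted p = 0.00582, SE 0.09), and every treated library lay under the lowest control. ORC6, the smallest subunit, had 82.6, 77.7 and 77.2 CPM and then 67.3, 66.4 and 64.5 CPM, which is a log2 fold change of -0.26 (edgeR adjusted p = 0.0419, SE 0.07). This call was lost with library size only, and held in 2 of the 6 fits without a library. CDC6, which completes the MCM loader, was at 158.3 ± 5.50 CPM (SD, n = 3) in control and 125.4 ± 3.91 CPM (SD, n = 3) in treated cells, which was a fall of 0.34 on the log2 scale (edgeR adjusted p = 0.0112). Its counterpart GMNN, the inhibitor of licensing, also fell, from 59.9 ± 3.98 to 44.4 ± 4.94 CPM (SD over n = 3), at a log2 fold change of -0.43 (edgeR adjusted p = 0.0197). So transcripts of licensing factors and of their inhibitor went the same way.

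CDT1 and POLD1 had the lowest fitted values in their roles and yet were not called. CDT1, which brings MCM to origins and is the target of GMNN, was at 50.03, 46.99 and 22.4 CPM in control replicates 1, 2 and 3 and at 26.5, 31.5 and 17.7 CPM in fluoxetine replicates 1, 2 and 3. Its log2 fold change was -0.65 with a standard error of 0.28 (edgeR adjusted p = 0.156). POLD1, the catalytic subunit of polymerase delta, was at 61.6, 63.2 and 36.6 CPM and at 37.9, 42.0 and 28.6 CPM, with a log2 fold change of -0.57 with a standard error of 0.20 (edgeR adjusted p = 0.0894). In both genes the library numbered 3 was the lowest of its group in control and in treated cells. These were the members richest in GC, at 64.9% (CDT1) and 65.0% (POLD1) of the longest transcript, beside 39.1 to 59.1% in the others. Over all 1879 tested genes with at least 60% GC, the median log2 level relative to the mean of the 6 libraries was -0.29 in control replicate 3 and -0.19 in fluoxetine replicate 3, and between 0.02 and 0.19 in the other 4 libraries. Across the 33 members, the deviation of a library from its group mean had a Pearson r with GC content of -0.77 in control replicate 3 and -0.58 in fluoxetine replicate 3, where the points share the library and its depth. With the GC trend of each library removed, an alternative chosen after seeing these values, the log2 fold change was -0.56 for CDT1 (edgeR adjusted p = 0.0154) and -0.50 for POLD1 (edgeR adjusted p = 0.00159). Under that alternative 28 of the 33 members were called lower and 0 higher, and over all genes 1701 were lower and 1613 higher, against 833 and 1214 without it. Leaving out 1 library moved the values widely. Without control replicate 3, CDT1 was at -0.98 (edgeR adjusted p = 0.00214) and POLD1 at -0.82 (edgeR adjusted p = 0.00125), and without fluoxetine replicate 3, CDT1 was at -0.47 (edgeR adjusted p = 0.334) and POLD1 at -0.45 (edgeR adjusted p = 0.211). Of the 6 libraries left out in turn, only control replicate 3 gave a call for either gene. DESeq2 called POLD1 (adjusted p = 0.0141) and not CDT1 (adjusted p = 0.334). A replicate block called CDT1 at -0.62 (edgeR adjusted p = 5.01e-08) and POLD1 at -0.55 (edgeR adjusted p = 2.87e-07). So did the fit without a filter, at -0.686 (edgeR adjusted p = 5.52e-07) and -0.605 (edgeR adjusted p = 2.71e-06). Over all genes, the block called 1787 lower (11.4%) and the fit without a filter 1516 (4.77%), against 5.32% in the main fit. The fit without a filter tested 31762 genes. Neither gene was called with limma-voom, RLE factors, library size only, equal depth or a minimum count per library. The labels share only replicate numbers between the groups.

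**Figure D3:**
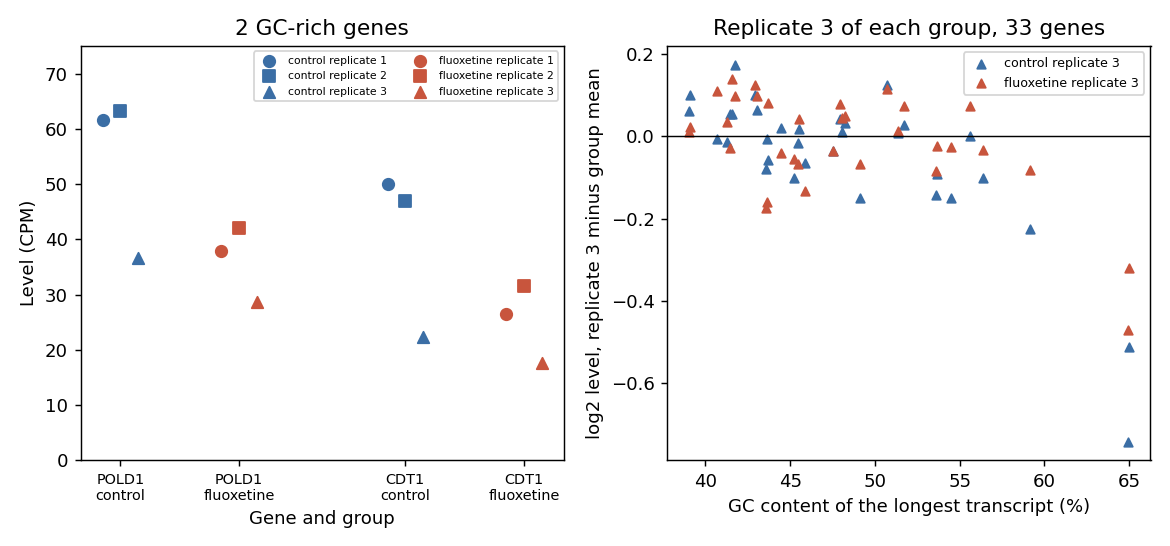
Left, level of POLD1 and CDT1 in CPM (vertical axis from 0) in each library of both groups, where the triangles of replicate 3 are the lowest mark of every column. Right, for the 33 genes, GC content in percent (horizontal axis) against the log2 level of replicate 3 minus its group mean (vertical axis), where the rightmost points, near 65%, are POLD1 and CDT1.

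Among the polymerase and primase subunits, 5 of 9 transcripts fell (5.32% of all tested genes). All 9 had log2 fold changes below 0 (45.8% of all tested genes), with a median of -0.33. PRIM1, the catalytic primase subunit that starts every new strand, was at 51.8, 49.96 and 50.5 CPM in control libraries and at 32.3, 37.35 and 38.95 CPM in fluoxetine libraries, a log2 fold change of -0.49 (edgeR adjusted p = 0.00814, SE 0.09). PRIM2, the regulatory subunit of the same enzyme, was at 30.6, 28.97 and 31.5 CPM and at 24.0, 27.4 and 29.7 CPM, groups that overlapped, with a log2 fold change of -0.17 (edgeR adjusted p = 0.330). The log2 ratio of PRIM1 to PRIM2 went from 0.74 ± 0.05 to 0.42 ± 0.03 (SD, n = 3), and all treated libraries had a lower ratio than all control libraries. PRIM1 shares 33 exon bases with NACA on the same strand, a gene with more than 10 times its counts, whose log2 fold change was -0.23. Strand cannot tell reads in those bases apart, so the count of PRIM1 is uncertain to that extent.

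POLA2, the accessory subunit of polymerase alpha, had 58.4, 65.1 and 52.8 CPM in control and 41.35, 45.6 and 42.3 CPM in treated libraries, a log2 fold change of -0.45 (edgeR adjusted p = 0.0147, SE 0.10). POLA1, its catalytic partner, was lower in every treated library too, at 99.7 ± 7.77 and 82.95 ± 7.40 CPM (SD, n = 3), with a log2 fold change of -0.27 that did not pass (edgeR adjusted p = 0.0824). The nearest libraries of the POLA1 groups, at 91.35 and 90.1 CPM, were hardly apart. For polymerase epsilon, which copies the leading strand, the catalytic POLE went from 130.4 ± 6.50 to 103.0 ± 9.67 CPM and its accessory POLE2 from 32.8 ± 2.09 to 26.1 ± 1.28 CPM (SD, n = 3). Both fell, by 0.34 (edgeR adjusted p = 0.0275) and 0.33 (edgeR adjusted p = 0.0471) on the log2 scale. Their log2 ratio moved by only 0.02 between the groups, less than its SD of 0.16 in the control and 0.13 in the treated libraries (n = 3). For polymerase delta, the lagging strand enzyme, the accessory POLD3 fell by 0.33 on the log2 scale (edgeR adjusted p = 0.0419), from 39.3 ± 2.20 to 31.2 ± 2.06 CPM (SD, n = 3). With library size only the calls of POLE2 and POLD3 were lost, and they held in 1 and 2 of the 6 fits without a library. POLD2, the subunit that bridges POLD1 and POLD3, was 234.7 ± 32.99 and 212.5 ± 17.4 CPM (SD, n = 3), with overlapping groups and a log2 fold change of -0.14 (edgeR adjusted p = 0.418).

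PCNA, the ring that tethers polymerases to DNA (ENSG00000132646, chromosome 20, 5114953 to 5126626, minus strand), had the highest level of the 33 transcripts per kilobase of annotated exon, 276.0 CPM per kilobase in control cells against 63.5 for POLD2, the next. It was at 429.9, 410.3 and 378.0 CPM in control replicates 1, 2 and 3 and at 279.8, 320.7 and 282.9 CPM in fluoxetine replicates 1, 2 and 3. The mean went from 406.1 ± 26.2 to 294.5 ± 22.8 CPM (SD over n = 3), at a log2 fold change of -0.46 (edgeR adjusted p = 0.00504, SE 0.08), and the groups did not overlap.

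The clamp loader RFC has a large subunit, RFC1, that touches DNA and 4 small subunits, RFC2 to RFC5. The small subunits all fell and RFC1 was not called. RFC4 went from 60.4 ± 2.15 to 45.1 ± 4.09 CPM (SD over n = 3), at a log2 fold change of -0.42 (edgeR adjusted p = 0.0132). RFC3 went from 100.8 ± 5.02 to 79.2 ± 3.90 CPM (SD over n = 3), at a log2 fold change of -0.35 (edgeR adjusted p = 0.0156). RFC5 and RFC2 had log2 fold changes of -0.33 (edgeR adjusted p = 0.0228) and -0.31 (edgeR adjusted p = 0.0475). The call of RFC2 was lost with limma-voom and with library size only, and held in 2 of the 6 fits without a library. RFC1 itself was at 70.3, 73.8 and 86.3 CPM in control replicates 1, 2 and 3 and at 81.2, 67.6 and 82.0 CPM in fluoxetine replicates 1, 2 and 3. These groups were interleaved, and the log2 fold change was 0.00 (edgeR adjusted p = 0.995, SE 0.10), the single fitted value of the 33 that was not below 0. The log2 ratio of the small subunit mean to RFC1 was 0.13, 0.05 and -0.20 in control and -0.50, -0.09 and -0.51 in treated libraries, which overlapped. RFC4 shares 21 exon bases with EIF4A2 on the other strand, which fell by 0.37 on the log2 scale (edgeR adjusted p = 0.00683). RFC5 shares 186 with WSB2, also on the other strand, which rose by 0.35 (edgeR adjusted p = 0.0144). Whether the counting used strand is not given in the sources used here, so both counts are uncertain to that extent.

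RPA is the trimer that coats single-stranded DNA, and of its subunits only RPA2 was called lower. RPA2, the middle subunit that checkpoint kinases phosphorylate, was at 85.2, 79.6 and 83.2 CPM in control replicates 1, 2 and 3 and at 52.9, 55.7 and 56.8 CPM in fluoxetine replicates 1, 2 and 3. All treated libraries lay far under all control libraries, and the log2 fold change was -0.58 (edgeR adjusted p = 0.00103, SE 0.08), the smallest p-value of the 33. RPA1, the large DNA-binding subunit, was at 177.3 ± 5.00 and 152.3 ± 4.55 CPM (SD, n = 3), with groups apart and a log2 fold change of -0.22 that just missed the threshold (edgeR adjusted p = 0.0562). RPA3, the small subunit, was at 22.8 ± 1.52 and 20.2 ± 2.07 CPM (SD, n = 3), with overlapping groups and a log2 fold change of -0.18 (edgeR adjusted p = 0.336). RPA3 shares 118 exon bases with UMAD1 on the other strand, a gene that rose by 0.43 on the log2 scale (edgeR adjusted p = 0.0156). As the use of strand in counting is not given, the count of RPA3 is uncertain to that extent. The log2 ratio of RPA2 to RPA1 was -1.01, -1.17 and -1.12 in control libraries and -1.50, -1.43 and -1.47 in treated ones, a difference of -0.36 with no overlap.

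FEN1, the nuclease that trims the flaps of lagging fragments, was at 157.6, 147.0 and 138.2 CPM in control and at 108.3, 124.3 and 113.1 CPM in treated libraries, a log2 fold change of -0.36 (edgeR adjusted p = 0.0184, SE 0.08). It lies beside FADS2, a fatty acid desaturase gene on the same strand that rose by 2.26 on the log2 scale (edgeR adjusted p = 2.55e-07), and the annotations share 49 exon bases. Strand cannot separate reads in those bases, so the count of FEN1 is uncertain to that extent. LIG1, the ligase that seals those fragments, was lower in every treated library by a small margin, at 61.1 ± 4.08 and 54.6 ± 1.30 CPM (SD, n = 3), and its log2 fold change of -0.16 was not called (edgeR adjusted p = 0.233). Thus FEN1 and LIG1, which act in sequence, lay on different sides of the threshold, and the difference between them was not tested. Elsewhere, POLA1 and TIPIN each span a shorter gene on the other strand with which they share 0 exon bases, EEF1B2P3 at a log2 fold change of -0.28 (edgeR adjusted p = 0.121) and Y_RNA at 0.13 (edgeR adjusted p = 0.601).

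The proportions between partners were compared for 8 pairs or sets, chosen after the values were seen, by an exact two-sided permutation test on the log2 ratio in each library. The ratio was apart between the groups for PRIM1 to PRIM2, RPA2 to RPA1 and TIPIN to TIMELESS, each at exact p = 0.1, which is the smallest that 3 against 3 libraries can give, and 0.267 after Benjamini-Hochberg adjustment over the 8. The other 5 were POLA2 to POLA1, POLE2 to POLE, POLD1 to POLD2, the RFC2 to RFC5 mean to RFC1, and CDT1 to GMNN, with exact p between 0.2 and 1.0.

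The same fit was read for 46 further genes of the replication machinery, a list that shares no gene with the 33. Of these, 14 fell and 0 rose, and the median log2 fold change was -0.25. Of the 46, 42 lay below 0 (45.8% of all tested genes) and 25 had all treated libraries under all control libraries (14.4% of all tested genes). For 2 of the 46, all treated libraries lay above all control libraries (17.5% of all tested genes). The number called was 23 without control replicate 3, 9 without control replicate 2 and 6 without fluoxetine replicate 1. The genes with the smallest p-values were POLE3, a histone-fold subunit of polymerase epsilon, at a log2 fold change of -0.53 (edgeR adjusted p = 0.00117), UHRF1, which carries DNA methylation through replication, at -0.54 (edgeR adjusted p = 0.00186), CHAF1B, of the chromatin assembly factor behind the fork, at -0.57 (edgeR adjusted p = 0.00331), and MCM3, of the helicase core, at -0.41 (edgeR adjusted p = 0.00333). On the counts, 69.7% of the 33 origin and fork factors and 30.4% of this list were called lower, beside 5.32% of all genes. A list of 30 mitosis genes also moved with the 33, with a median of -0.31. In this list 19 fell (63.3%, beside 5.32% of all tested genes) and 0 rose. Its number of falls was 7 without fluoxetine replicate 1. CDC20, the activator of the anaphase ubiquitin ligase, went from 170.9 ± 22.6 to 93.1 ± 7.58 CPM (SD, n = 3), at a log2 fold change of -0.88 (edgeR adjusted p = 0.000674), CCNB1, cyclin B, was at -0.50 (edgeR adjusted p = 0.00142), BIRC5, survivin, at -0.56 (edgeR adjusted p = 0.0018) and CDK1 at -0.45 (edgeR adjusted p = 0.00185). The part of the share of cycling cells in these values was not tested.

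**Figure D4:**
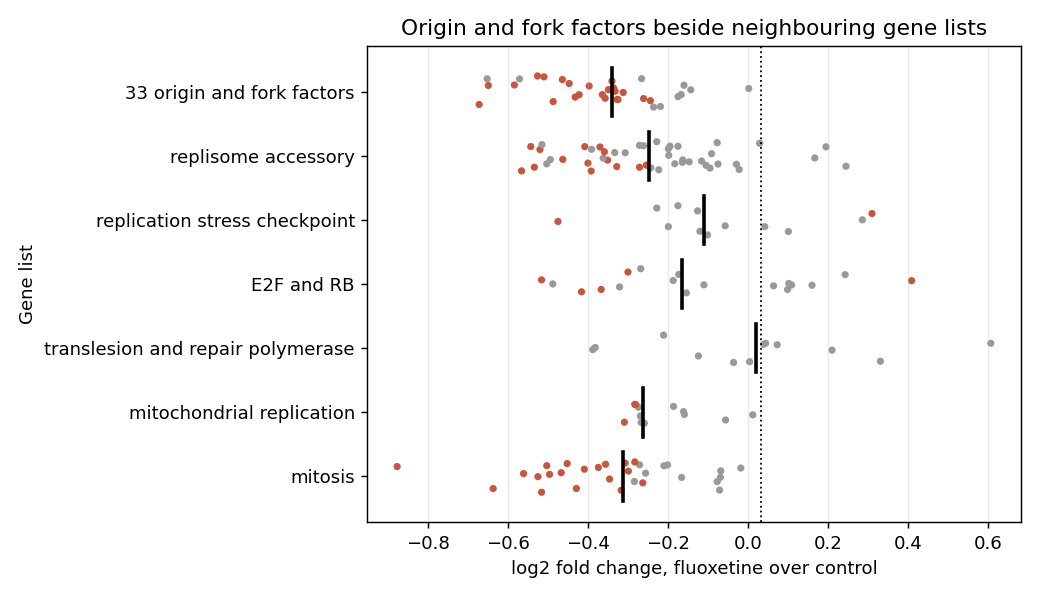
The log2 fold change of each gene, fluoxetine over control (horizontal axis), for the 33 origin and fork factors and 6 further lists (vertical axis, points spread at random within a row). Red points had an adjusted p under 0.05, grey points did not, each black bar is the list median and the dotted line the median of all tested genes (0.03). The medians of the 33 factors (-0.34) and the mitosis list (-0.31) lie furthest to the left, and that of the translesion and repair polymerases is at 0.02.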

How the data were processed

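Counts of reads per gene were analysed for 3 control and 3 fluoxetine libraries, grouped by the treatment the labels give. As deposited, the counts were raw, whole numbers without normalization or pooling. The submitters' processing notes name fastp 0.20.0, HISAT2 2.1.0, HTSeq 0.10.0 and DESeq2 1.18.1, without their roles or a genome build. Of the 31762 genes, 31635 were in GENCODE release 29 (GRCh38), 96.81% of them with the same start, end and strand. Columns of the authors' own fold changes and p-values were not used.

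The whole table was fitted in R 4.3.3 with edgeR 4.0.16 (glmQLFit and glmQLFTest, TMM, filterByExpr, no covariate), with Benjamini-Hochberg adjustment over the 15646 genes tested. The standard error is the log2 fold change over the square root of the F statistic. Levels are CPM on TMM-scaled library sizes. The square root of the common dispersion was 0.107. Exon length is the union of annotated exons, and GC content that of the longest transcript. The scripts were tested on counts drawn with planted changes.

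Alternatives were DESeq2 1.42.0, limma-voom (limma 3.58.1), RLE factors, library size only, no filter, a minimum of 10 counts per library, a replicate block, thinning to 16157507 counts, and leaving out each library. Removing GC trends (a smooth of each library's log2 ratio to the mean library against GC content, as an offset) was chosen after seeing the data. The 33 members and the lists were chosen with earlier results of these data known. All members are named, and of each list up to 4 called genes by smallest p-value. Genes that overlap a member are named above 10% of its count.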

Additional observations from a re-analysis of the deposited data

How the results depend on the processing

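All 33 members had the same direction in every alternative except RFC1, whose value around 0 was -0.024 with DESeq2 and with RLE factors, -0.001 with limma-voom, -0.034 without a filter, -0.009 at equal depth, -0.069 with the GC trend removed and -0.068 with the replicate block added to that, and between -0.094 and 0.062 when a library was left out. The number of members called lower was 24 with DESeq2 (6.71% of all tested genes), 22 with limma-voom (4.84%) and 25 with RLE factors (6.31%). It was 18 with library size only (4.61%), 22 at equal depth (5.17%) and 0 when a 2-fold change was asked for (0.147%). Leaving out a library gave 6 to 27 members. For all genes the numbers lower and higher were 1516 and 1393 without a filter (31762 genes tested). With the replicate block they were 1787 and 2231. They were 1701 and 1613 with the GC trend removed, and 2211 and 2037 with GC trend and block together. With a library left out, 163 to 2006 were lower and 409 to 1627 higher. The replicate block called 28 members lower (11.4% of all tested genes). The labels share only replicate numbers between the groups. Deviations from the group means of same-numbered libraries had correlations of 0.030, 0.116 and 0.392. Control replicates 2 and 3 correlated best with the fluoxetine library of the same number, and control replicate 1 with fluoxetine replicate 2 (0.320). Whether same-numbered libraries were handled together was not tested, and the numbers were not taken as pairs in the main fit.

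The replisome accessory list had 22 genes lower without a filter, 25 with the block, 27 with the GC trend removed, 33 with GC trend and block together, and 6 to 23 with a library left out. The replication stress checkpoint list had 3 and 5 with the GC trend removed, without and with the block. The E2F and RB list had 7 with the block, 8 with GC trend and block together and 1 to 5 with a library left out. The translesion list had 1 with DESeq2, 2 without a filter, 2 with the block, 2 with the GC trend removed, 3 with GC trend and block together and 0 to 2 with a library left out. The mitochondrial list had 0 with library size only, 6 with the block, 7 with GC trend and block together and 0 to 7 with a library left out. The mitosis list had 7 to 20 with a library left out. The causes were not tested, though fits without a library have fewer samples. Depth limits the low genes most: 3 counts were 0.108 to 0.182 CPM in these libraries.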

Other observations

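In the E2F and RB list, 4 of 18 tested genes fell and 1 rose (22.2% and 5.56%), with a median log2 fold change of -0.16. The shares over all tested genes were 5.32% lower and 7.76% higher, so the share that rose was not above that of all genes. E2F1, the activating factor of the G1/S transition, went from 53.3 ± 4.45 to 37.3 ± 2.08 CPM (SD, n = 3), at -0.52 (edgeR adjusted p = 0.0064). MYBL2, which carries the program into G2, was at -0.42 (edgeR adjusted p = 0.0128), TFDP1, the partner that E2F proteins need to bind DNA, at -0.30 (edgeR adjusted p = 0.0181) and E2F4 at -0.37 (edgeR adjusted p = 0.022). The gene that rose, named after its value was seen, was RBL2, the pocket protein p130 of resting cells, at 32.8% higher (edgeR adjusted p = 0.0433). Without fluoxetine replicate 1 this list had 1 fall, and without control replicate 2 or fluoxetine replicate 3 it had 2.

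In the replication stress checkpoint list, 1 of 12 tested genes was lower and 1 higher, 8.33% each, near the 5.32% and 7.76% over all tested genes. CDC25A, the phosphatase that lets cells enter S phase, fell by 0.47 on the log2 scale (edgeR adjusted p = 0.00647) and RAD17, which loads the checkpoint clamp, rose by 0.31 (edgeR adjusted p = 0.0482). The other 10 of 12 tested genes were not called. Of 12 translesion and repair polymerase genes, edgeR called 0 (2 lower and 1 higher at an unadjusted p under 0.05, and 1 lower with DESeq2), and the median was 0.02. Of 12 genes that replicate mitochondrial DNA, 11 lay below 0 (45.8% of all tested genes) and 3 fell (5.32% of all tested genes). The 3 were TWNK, TFAM and MGME1, at -0.31, -0.28 and -0.28 (edgeR adjusted p between 0.041 and 0.0459). These 3 falls became 0 without control replicate 2, fluoxetine replicate 1 or fluoxetine replicate 3, 7 without control replicate 3, and 0 with library size only.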
